A study of Mus musculus with 12 samples.

Results

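The glucuronidation genes of mouse liver were followed here on Affymetrix arrays, from the enzymes that make UDP-glucuronate to the UDP-glucuronosyltransferases that use it. A probe set, the array's unit of measurement for a transcript, was taken where its annotated symbol was Ugdh, Ugp2, Ugt2b1, Ugt2b5, Ugt2b34, Ugt2b35, Ugt2b36, Ugt3a1 or Ugt3a2, or where it was annotated to several Ugt1a genes. This gave 16 of the 22690 probe sets of the array. Ugp2 had 5, the shared Ugt1a entry 3, Ugt2b34 and Ugt3a1 2 each, and Ugdh, Ugt2b1, Ugt2b5 and Ugt3a2 1 each. Ugt2b35 and Ugt2b36 have no probe set listed in the annotation used and were not analysed here. The 3 shared probe sets each joined 8 Ugt1a genes, so no single Ugt1a gene was read.

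RNA came from whole livers of male C57BL6/J mice aged 8 weeks, in 4 groups of 3. Mice labelled Txnrd1 liver-null carried Txnrd1 alleles that are conditional-null and were disrupted in liver by albCre, a Cre recombinase driven by the albumin promoter and so made in hepatocytes, whereas wild-type mice were labelled without it. Txnrd1 encodes thioredoxin reductase 1, which uses NADPH to reduce thioredoxin. Each genotype received either acetaminophen (APAP), a painkiller that the liver clears largely as a glucuronide and a sulfate, at 100 mg/kg into the peritoneum, or saline, and livers were taken 8 hours later. All 12 titles name mouse 8 and differ in a closing number, which is used below as the replicate number. The labels do not say outright that these were separate mice, so the p-values measure the spread between these 12 samples. The whole liver was read, and a smaller number of cells of a type cannot be told apart from less RNA per cell.

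Glucuronidation makes lipophilic compounds soluble by attaching glucuronic acid. UGP2 makes UDP-glucose from glucose 1-phosphate and UTP, and UGDH oxidises UDP-glucose to UDP-glucuronate in the cytosol, with NAD+ as acceptor. UDP-glucuronate enters the endoplasmic reticulum, where UGT1A and UGT2B enzymes transfer the sugar acid to bilirubin, steroids, bile acids and drugs, APAP among them. UGT3A enzymes are relatives that use other UDP-sugars, such as UDP-N-acetylglucosamine in the case of human UGT3A1. The Ugt1a genes lie together on chromosome 1, each with its own first exon and with downstream exons in common. The Ugt2b genes lie in a cluster with the Ugt2a genes on chromosome 5, which also holds Ugdh. Ugp2 is on chromosome 11, and Ugt3a1 and Ugt3a2 are neighbours on chromosome 15.

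The 250 bases before the annotated start of 3 genes are shown, because they mark how the start of the gene with the clearest genotype difference differs in sequence from that of a liver transferase. Ugdh passed the test in each genotype comparison, Ugt2b5 is a transferase that did not, and Slc35d1 encodes the transporter that carries UDP-glucuronate into the endoplasmic reticulum. Sequences are from RefSeq on GRCm38.p6, read 5′ to 3′ on the gene's strand, at chr5:65435843-65436092 (minus strand) for Ugdh, chr5:87140341-87140590 (minus strand) for Ugt2b5 and chr4:103215177-103215426 (minus strand) for Slc35d1. Capitals mark matches to TGACNNNGC, the core of the antioxidant response element bound by NRF2, on either strand.
Ugdh: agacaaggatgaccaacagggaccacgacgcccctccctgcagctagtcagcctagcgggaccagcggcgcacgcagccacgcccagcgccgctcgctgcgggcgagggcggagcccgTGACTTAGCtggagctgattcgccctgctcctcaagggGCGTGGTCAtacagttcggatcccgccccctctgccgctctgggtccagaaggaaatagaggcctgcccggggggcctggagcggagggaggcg
Ugt2b5: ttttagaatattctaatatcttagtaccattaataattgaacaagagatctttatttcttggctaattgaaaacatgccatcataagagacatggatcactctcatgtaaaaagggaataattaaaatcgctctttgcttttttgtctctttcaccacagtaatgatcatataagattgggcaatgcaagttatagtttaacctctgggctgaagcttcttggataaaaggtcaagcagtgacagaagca
Slc35d1: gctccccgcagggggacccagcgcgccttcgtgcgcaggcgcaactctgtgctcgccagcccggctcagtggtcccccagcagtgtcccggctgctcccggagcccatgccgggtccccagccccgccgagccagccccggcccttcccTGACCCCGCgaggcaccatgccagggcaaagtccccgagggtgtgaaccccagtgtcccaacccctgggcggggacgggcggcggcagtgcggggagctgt
The Ugdh window held 2 matches. The first, TGACTTAGC, lay 132 to 124 bases before the start, and GCGTGGTCA, a match on the other strand, lay 94 to 86 bases before it. Slc35d1 held 1 match, TGACCCCGC, 101 to 93 bases before its start. Of all 32851 promoter windows of this length in the table, 3338 (10.161%) held at least 1 match. Among 16 member genes with a window (17 windows, Ugp2 having 2), Ugdh alone held one. Windows were found for 8 Ugt1a, 5 Ugt2b and 1 Ugt3a genes. G and C made up 69.2% of the Ugdh window, 64.0% and 73.6% of the Ugp2 windows, 32.4 to 51.2% of the Ugt1a windows and 31.2 to 44.0% of the Ugt2b windows. Among 10 neighbouring pathway genes with a window, Slc35d1 and Slc26a1 held a match. Over both treatments Slc35d1 was higher and Slc26a1 lower in livers labelled liver-null. Akr1a1, Bpnt1, Ces1g, Dcxr, Entpd5, Gbe1 and Pgd, which were higher, and Slco1a1, which was lower, held none. The printed windows are therefore not typical of the genes called. These 10 were chosen because they were called in the lists of supply, endoplasmic reticulum, export or sulfation genes below. A total of 4 motifs was searched. TNGCGTG, the core bound by the aryl hydrocarbon receptor, was in 4.1% of all windows and, among these genes, in that of Ugt1a5 and, among the 10 neighbours, in that of Pgd. The DR4 element, a spaced repeat of AGGTCA used by nuclear receptors, and the HNF1 element were in 0.015% and 0.009% of all windows and in none of these genes. A match describes letters in a window and is not evidence of binding.

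The 12 arrays were alike, with pairwise correlations across probe sets of 0.986 to 0.998. By their upper quartile they formed a smaller set of 4, at 5.48 to 5.58 log2 units (liver-null APAP 17, wild-type APAP 14, liver-null saline 16 and wild-type saline 10), and a larger set of 8, at 5.71 to 5.85. No label names these sets, and every group contributes 1 array to the smaller one. Hepatocyte markers were high on every array (Alb 13.66 to 13.85, Ttr 13.30 to 13.50). Of the same list, Apoa1, not called, read 13.52 to 13.67 in liver-null livers, against 13.73 to 13.90 in wild-type livers. Kidney and pancreas markers were low. Slc34a1, Umod and Cpa1 did not pass the filter on low values, and Kap (2.53 to 3.33) and Prss2 (2.42 to 2.84) passed it with low values. Of the markers of other cell types, 1 was called over both treatments: Fabp2, an intestinal fatty acid binding protein also detected here, read 8.79 to 9.25 in liver-null livers, against 9.58 to 9.96 in wild-type livers. The erythroid marker Alas2, not called, read 6.93 to 7.98 in liver-null livers, against 8.01 to 8.995 in wild-type livers. The part of Apoa1, Fabp2 or Alas2 in the results below was not tested. Of 3 Txnrd1 probe sets, 2 did not pass the filter, reading 1.33 to 1.99 in liver-null livers, against 1.33 to 2.06 in wild-type livers. The one tested, 1421529_a_at, went against the simplest reading of the label. It read 10.37, 10.38 and 10.58 in liver-null APAP livers (replicates 2, 3 and 17), 9.76, 9.59 and 9.70 in wild-type APAP livers (12, 13 and 14), 10.26, 10.47 and 10.32 in liver-null saline livers (4, 5 and 16), and 9.43, 9.58 and 9.81 in wild-type saline livers (8, 9 and 10). On this probe set Txnrd1 was higher in livers labelled liver-null, by 0.75 ± 0.09 log2 units over both treatments (SE, n = 6 against 6, adjusted p = 0.00089). Where the 3 probe sets lie relative to the disrupted part of the gene is not given in the sources used here, so they do not check the labels. The genotypes are therefore named below as labelled.

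UDP-glucose dehydrogenase, the enzyme that makes UDP-glucuronate, was higher in livers labelled liver-null, by 2.23-fold after APAP and 2.07-fold in saline. Ugdh (probe set 1416308_at) read 11.52, 11.44 and 11.42 log2 units in liver-null APAP livers, against 10.42, 10.14 and 10.35 in wild-type APAP livers. In saline it read 11.16, 11.49 and 11.30 in liver-null livers, against 9.97, 10.38 and 10.44 in wild-type livers. The lowest of the 6 liver-null livers, 11.16, lay above the highest of the 6 wild-type livers, 10.44. The difference was 1.15 log2 units after APAP (2.23-fold, SE 0.15, 95% confidence interval 0.84 to 1.47) with a limma adjusted p of 0.0039, 1.05 in saline (2.07-fold, SE 0.15, interval 0.73 to 1.37) with an adjusted p of 0.012, and 1.10 averaged over both treatments (2.15-fold, SE 0.10, interval 0.88 to 1.33) with an adjusted p of 0.00022. P-values were adjusted over the 14320 probe sets tested.

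Within the 2 sets of arrays the Ugdh difference kept its direction. After APAP it was 1.20 in the larger set, with 2 arrays a group, and 1.07 in the smaller, with 1. In saline it was 1.15 and 0.85. The call over both treatments held in each of the 19 alternative fits, with differences of 1.03 to 1.17. The call in saline did not hold without liver-null saline replicate 5 (adjusted p = 0.062) or with only the groups compared in the fit (adjusted p = 0.085), and ranged from 0.00020 to 0.085 over all alternatives. The plot of values by array shows Ugdh beside the other genes.

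**Figure D1:**
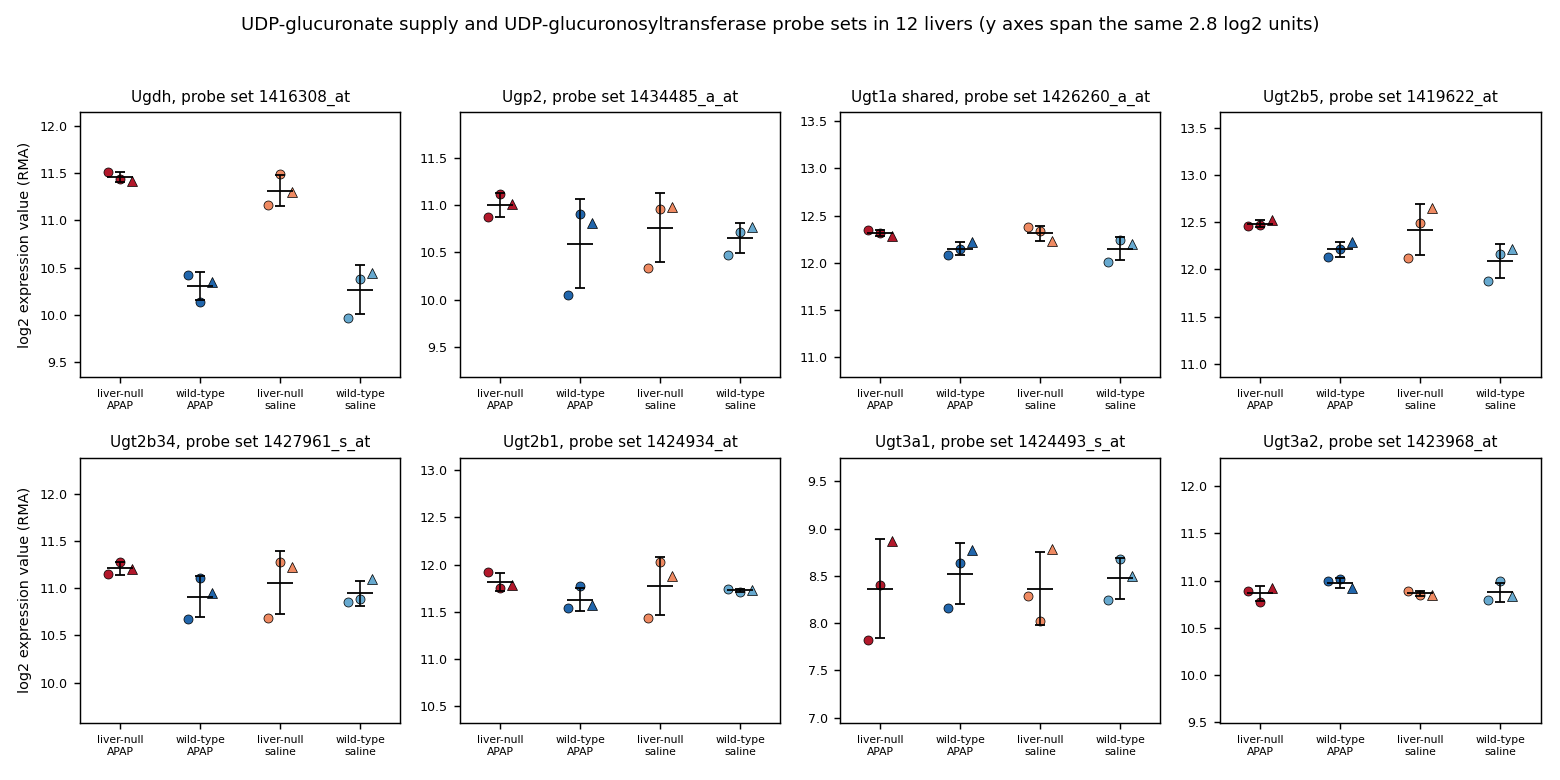
Log2 expression (RMA) of the highest-mean probe set of each gene or shared entry, by genotype and treatment. Points are livers (triangles: the smaller set of arrays), bars the mean ± SD of 3. Among the probe sets shown, Ugdh is the one whose 6 liver-null livers, 11.16 to 11.52, sit clear of the 6 wild-type livers, 9.97 to 10.44. Another shared Ugt1a probe set, not shown, was also clear.

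Ugdh was the 1 of 16 probe sets called in each genotype comparison. Calls over all tested probe sets made up 0.761% after APAP (109 of 14320), 0.622% in saline (89) and 3.65% over both treatments (523, of which 263 were higher, 1.84%, and 260 lower, 1.82%), and 1 of 16 is to be read against these. Differences were above 0 for 13 of 16 after APAP (49.2% of all tested), for 13 of 16 in saline (46.1%) and for 13 of 16 over both treatments (47.6%). An unadjusted p under 0.05 was given to 3 of 16 after APAP (8.48% of all tested), to 3 of 16 in saline (11.1%) and to 6 of 16 over both treatments (15.8%). Over both treatments the median difference of the 16 was 0.24 log2 units, beside -0.01 for all tested. Several of the 16 read the same gene or locus, so they are not 16 separate observations. The liver-null and wild-type livers did not overlap for 7 of 16 after APAP (13% of all tested), for 3 of 16 in saline (14.6%) and for 2 of 16 over both treatments (3.88%), these being Ugdh and the shared Ugt1a probe set 1426261_s_at.

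**Figure D2:**
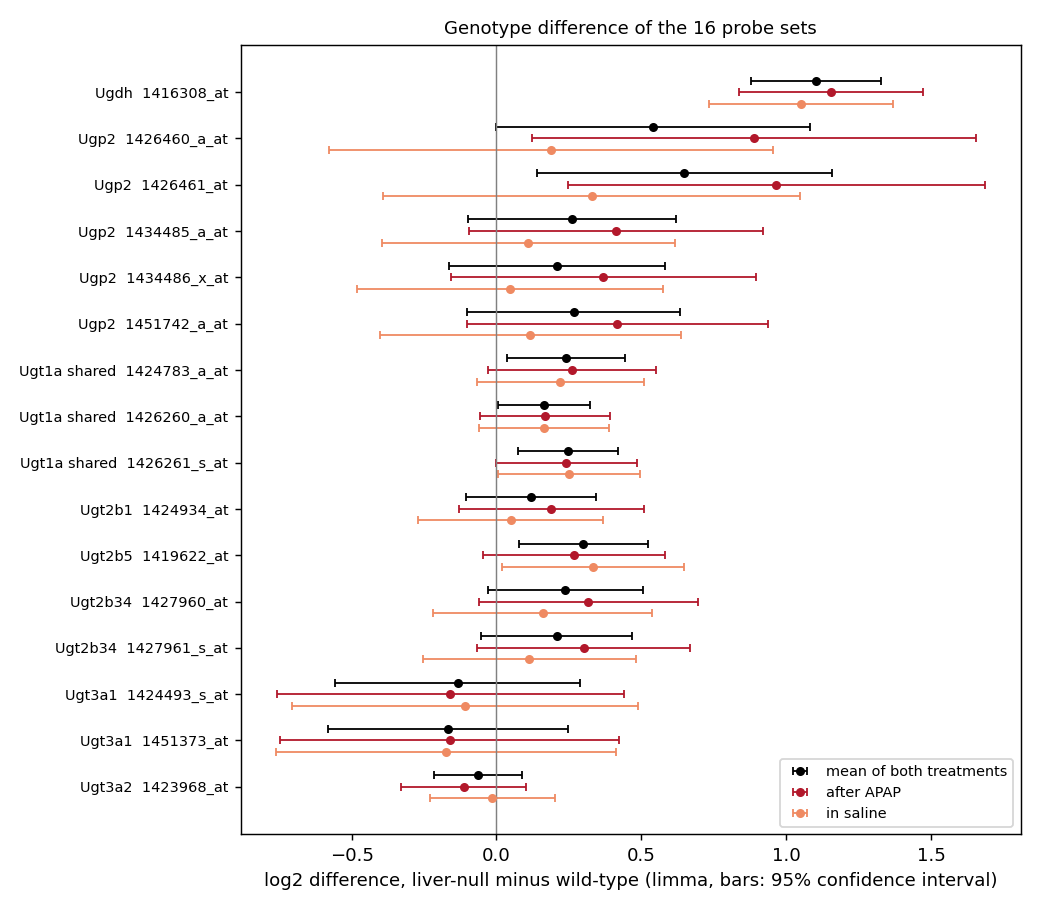
Genotype difference of the 16 probe sets, liver-null minus wild-type, in log2 units, averaged over treatments (black), after APAP (red) and in saline (orange), with 95% confidence intervals from limma. The Ugdh intervals lie furthest from 0, at 0.88 to 1.33 over both treatments, and the Ugp2 estimates are larger after APAP than in saline with wide intervals.

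Ugp2, which supplies UDP-glucose for glycogen as well as for glucuronate, gave positive genotype differences that did not pass the test. On its highest-reading probe set, 1434485_a_at, it read 10.87, 11.12 and 11.01 in liver-null APAP livers, against 10.05, 10.91 and 10.81 in wild-type APAP livers, and 10.34, 10.96 and 10.98 in liver-null saline livers, against 10.47, 10.71 and 10.77 in wild-type saline livers. Here 1 wild-type APAP liver (12) and 1 liver-null saline liver (4) stood low, and the genotypes overlapped in saline and after APAP. The 5 probe sets gave 0.37 to 0.97 after APAP, 0.05 to 0.33 in saline and 0.21 to 0.65 over both treatments. The largest was on 1426461_at, which read 8.09, 8.39 and 8.22 in liver-null APAP livers, against 6.43, 7.88 and 7.49 in wild-type APAP livers. That difference was 0.97 log2 units (SE 0.33, adjusted p = 0.33), and over both treatments it was 0.65 (SE 0.23, adjusted p = 0.18). Without wild-type APAP replicate 12 the difference after APAP was 0.55 on 1426461_at and 0.46 on 1426460_a_at, against 0.97 and 0.89 with it. The interaction, the difference between the genotype effects after APAP and in saline, was 0.30 to 0.70 over the 5 Ugp2 probe sets and was not called. It was 0.02 to 0.27 without wild-type APAP replicate 12, 0.07 to 0.38 without liver-null saline replicate 4, and -0.20 to -0.05 without both, an alternative chosen after seeing the data. Over all members the interaction was above 0 for 12 of the 16 probe sets (55.4% of all tested).

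The shared Ugt1a probe sets, which read transcripts of the bilirubin and phenol transferases, differed by 0.16 to 0.25 log2 units over both treatments and were not called. On the highest-reading one, 1426260_a_at, liver-null APAP livers read 12.35, 12.32 and 12.28, against 12.08, 12.15 and 12.22 in wild-type APAP livers. In saline it read 12.37, 12.34 and 12.23 in liver-null livers, against 12.01, 12.24 and 12.20 in wild-type livers. The groups were clear of each other after APAP and overlapped in saline. Over both treatments the difference was 0.16 (SE 0.07, adjusted p = 0.30). It was 0.24 on 1424783_a_at (SE 0.09, adjusted p = 0.22) and 0.25 on 1426261_s_at (SE 0.08, interval 0.07 to 0.42, adjusted p = 0.13). The last was called with array weights (adjusted p = 0.025) and with a trended, robust variance (0.032), and its adjusted p over all alternatives was 0.025 to 0.34. The fit with array weights called many more probe sets across the whole table than the main fit, as counted near the end.

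UGT2B enzymes conjugate steroids and many drugs. Among the Ugt2b members, Ugt2b5 had the largest difference over both treatments and was not called in the main fit. Ugt2b38, which is not a member, differed by -1.58, was not called and is described at the end. The values below are those of Ugt2b5. It read 12.45, 12.47 and 12.52 in liver-null APAP livers, against 12.13, 12.22 and 12.29 in wild-type APAP livers, and 12.12, 12.49 and 12.65 in liver-null saline livers, against 11.88, 12.16 and 12.22 in wild-type saline livers. The genotypes did not overlap after APAP and overlapped in saline, through liver-null replicate 4. The difference over both treatments was 0.30 log2 units (SE 0.10, interval 0.08 to 0.52, adjusted p = 0.15). With the array set as a covariate the same difference had an adjusted p of 0.049, a fit in which 8.81% of all tested probe sets were called. Array weights also gave a call (adjusted p = 0.021), again in a fit with many more calls across the whole table than the main fit. Over all alternatives the adjusted p was 0.021 to 0.32. Within the sets of arrays it was 0.29 in the larger and 0.33 in the smaller.

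Ugt2b34 read lower in the same 2 livers as Ugp2. On 1427961_s_at it read 11.14, 11.28 and 11.20 in liver-null APAP livers, against 10.67, 11.10 and 10.94 in wild-type APAP livers, and 10.68, 11.28 and 11.22 in liver-null saline livers, against 10.85, 10.88 and 11.10 in wild-type saline livers. Its 2 probe sets differed by 0.21 and 0.24 over both treatments (adjusted p = 0.46 and 0.39). Ugt2b1 read 11.43 to 12.02 in the 6 liver-null livers, median 11.83, against 11.55 to 11.77 in the 6 wild-type livers, median 11.72. The difference was 0.12 (SE 0.10, adjusted p = 0.68). Its liver-null saline livers, at 11.43, 12.02 and 11.88, lay on both sides of the wild-type saline livers, at 11.74, 11.71 and 11.73.

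The UGT3A genes gave negative differences of no more than 0.17 log2 units, none of them called. Ugt3a1 (1424493_s_at) read 7.82 to 8.87 in the 6 liver-null livers, median 8.34, against 8.16 to 8.78 in the 6 wild-type livers, median 8.57. Its highest value in every group except wild-type saline was on the array of the smaller set. The difference over both treatments was -0.13 (interval -0.56 to 0.29, adjusted p = 0.84), and on 1451373_at it was -0.17 (interval -0.58 to 0.25). Ugt3a2 varied least between livers, from 10.78 to 10.92 in liver-null livers, against 10.80 to 11.02 in wild-type livers, with a difference of -0.06 (interval -0.22 to 0.09, adjusted p = 0.76).

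APAP at this dose and time was followed by no call in any of the 16 probe sets in either genotype. No probe set in the whole table was called by limma for APAP in liver-null livers (0% of 14320), for APAP in wild-type livers (0%) or for the interaction (0%). At an unadjusted p under 0.05 there were 103 (0.719%), 276 (1.93%) and 188 (1.31%) probe sets in the table for these comparisons, and 0 of the 16 in each. For Ugdh the APAP minus saline difference was 0.14 log2 units in liver-null livers (interval -0.18 to 0.46) and 0.04 in wild-type livers (interval -0.28 to 0.36). The largest among the 16 was on Ugp2 1426460_a_at in liver-null livers, which read 8.31, 8.55 and 8.38 after APAP, against 7.24, 8.12 and 8.29 in saline, a difference of 0.53 (interval -0.24 to 1.30). Without liver-null saline replicate 4, the liver at 7.24, this Ugp2 difference was 0.21. This was the 1 of 16 whose APAP and saline livers did not overlap in the liver-null genotype (4.94% of all tested), and in wild-type livers there were 0 of 16 (5.47%). All 16 differences lay above 0 in liver-null livers, beside 56.7% of all tested probe sets, and 8 of 16 in wild-type livers, beside 47.7%. In liver-null livers the smallest of them was 0.0003 and the median 0.12, beside a median of 0.02 for all tested. Liver-null saline replicate 4 was the lowest of its group for Ugdh, Ugp2, Ugt2b1, Ugt2b5 and Ugt2b34, so these differences share 1 low liver. Both comparisons of a genotype's livers are small, with 3 arrays a group.

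Ugp2 and Ugt2b34 varied together from liver to liver. Both were lowest in the 2 livers where acute phase genes, the plasma proteins that liver makes in inflammation, were highest. After subtracting group means, Pearson's r between a Ugp2 and a Ugt2b34 probe set was 0.83 to 0.94 over the 12 arrays, which share their array with both values. With Ugt2b1 it was 0.62 to 0.68 for Ugp2 and 0.81 to 0.83 for Ugt2b34. With Ugt2b5 it was 0.63 to 0.80 for Ugp2 and 0.58 to 0.78 for Ugt2b34. For Ugp2 it was 0.10 to 0.70 with the shared Ugt1a entry, 0.44 to 0.61 with Ugt3a1 and -0.17 to -0.05 with Ugt3a2. Between Ugdh and Ugp2 it was -0.04 to 0.20. Averaged over its 5 probe sets, Ugp2 stood 0.90 log2 units below its mean in wild-type APAP replicate 12 and 0.49 below it in liver-null saline replicate 4. These livers had the highest mean deviations over 20 acute phase genes, 0.87 and 1.20, whereas the other 10 lay between -0.96 and 0.27. Wild-type saline replicate 8, with the next lowest Ugp2 (-0.31), had a low acute phase deviation, -0.77. None of the 20 acute phase genes was called over both treatments. The largest differences were Lcn2 (2.01, adjusted p = 0.55) and Orm2 (1.98, adjusted p = 0.18), as values. Without both livers, an alternative chosen after seeing the data, Ugp2 1426461_at differed by 0.58 over both treatments. Its adjusted p was 0.040 (0.040 to 0.35 over all alternatives), and Ugdh remained called. The livers left out were those where Ugp2 itself was lowest, so this adjusted p is no independent evidence of a Ugp2 difference. The part of the acute phase in these values was not tested.

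**Figure D3:**
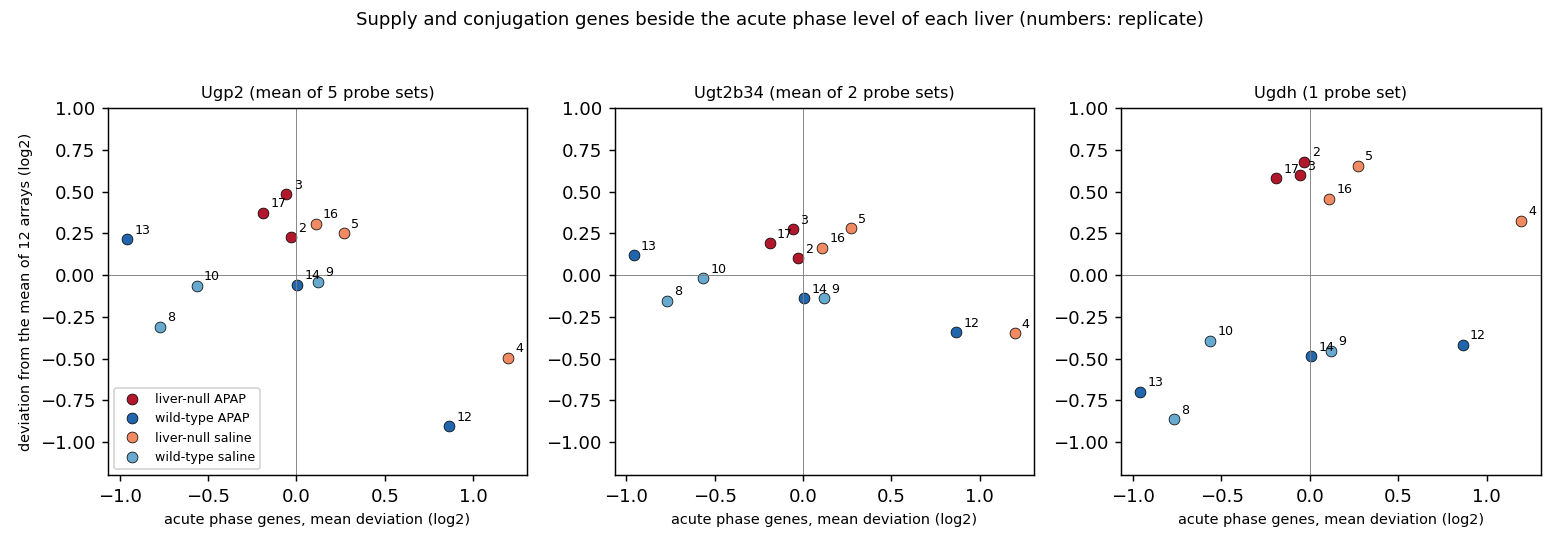
Deviation of Ugp2, Ugt2b34 and Ugdh from the mean of 12 arrays (vertical, log2) against the mean deviation of 20 acute phase genes in the same liver (horizontal, log2). Liver-null saline 4 and wild-type APAP 12, at 1.20 and 0.87, are low for Ugp2 and Ugt2b34, while for Ugdh each stays with its own genotype.

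Around UDP-glucuronate, 5 of 17 tested genes of the UDP-sugar supply and its competing uses changed over both treatments, 4 higher and 1 lower in livers labelled liver-null, with a list median of 0.06. Of all tested probe sets, 3.65% were called in this comparison, 1.84% higher and 1.82% lower. Akr1a1, the aldehyde reductase that turns glucuronate into gulonate, read 12.43 to 12.61 in liver-null livers, against 12.11 to 12.26 in wild-type livers, and rose by 0.31 log2 units (SE 0.07, adjusted p = 0.030). Dcxr, the xylulose reductase further along that route, read 9.60 to 9.81 in liver-null livers, against 8.86 to 9.43 in wild-type livers, and rose by 0.45 (SE 0.10, adjusted p = 0.026). Gulo, which makes ascorbate from gulonolactone in mice, read 9.33 to 9.95 in liver-null livers, against 10.12 to 10.38 in wild-type livers, and fell by 0.55 (SE 0.11, adjusted p = 0.020). For none of these 3 genes did the genotypes overlap (3.88% of all tested did not), and all 4 Akr1a1 probe sets were called. These genes are named because they were called in this comparison, which favours separated groups. The calls depended on single livers. Akr1a1 kept its call without any 1 of the 4 arrays of the smaller set and lost it without any 1 of the other 8 (adjusted p up to 0.10 over all alternatives). Dcxr lost it without liver-null APAP 2 or 3, liver-null saline 4 or 5, or wild-type saline 8 or 9 (up to 0.079), and Gulo without wild-type APAP 13, liver-null saline 5 or wild-type saline 9 (up to 0.066).

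The other 2 genes of that list that changed work outside glucuronate. Gbe1, the glycogen branching enzyme, rose by 0.98 (SE 0.16, adjusted p = 0.0064), reading 9.19 to 9.88 in liver-null livers, against 8.15 to 8.94 in wild-type livers. Pgd, 6-phosphogluconate dehydrogenase of the pentose phosphate pathway, rose by 0.81 (SE 0.11, adjusted p = 0.0028) and was called on 4 of 4 probe sets. After APAP, Pgd was the 1 gene of 17 that changed (0.761% of all tested), by 1.05 with an adjusted p of 0.012, a call lost without wild-type APAP 12 (0.063) or liver-null APAP 2 (0.065). In saline 0 of 17 changed.

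In the endoplasmic reticulum, 3 of 8 tested genes were higher over both treatments and 0 lower (1.84% and 1.82% of all tested). Slc35d1, the UDP-glucuronate transporter whose start is printed above, read 9.74, 9.78 and 9.88 in liver-null APAP livers, against 9.13, 9.36 and 9.19 in wild-type APAP livers. In saline it read 9.54, 9.77 and 9.71 in liver-null livers, against 9.31, 9.28 and 9.09 in wild-type livers. The genotypes did not overlap (3.88% of all tested did not), and Slc35d1 rose by 0.51 over both treatments (SE 0.08, adjusted p = 0.0056). Entpd5, which hydrolyses the UDP that transferases release, rose by 0.92 (SE 0.14, adjusted p = 0.0036), with 9.95 to 10.27 in liver-null livers, against 8.65 to 9.42 in wild-type livers, and was called on 4 of 4 probe sets. The third, Ces1g, is a liver carboxylesterase and no step of glucuronidation. It rose by 1.25 (SE 0.23, adjusted p = 0.012). After APAP 1 of 8 was called (0.761% of all tested), Slc35d1 (0.58, adjusted p = 0.047), a call lost without any 1 of its 6 livers.

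Of 6 tested transporters of glucuronides and other organic anions, 1 was higher and 1 lower over both treatments (1.84% and 1.82% of all tested). Abcc3, which exports glucuronides from hepatocytes to blood, read 10.28 to 10.53 in liver-null livers, against 8.38 to 9.64 in wild-type livers, and rose by 1.24 (SE 0.21, adjusted p = 0.0078). Slco1a1, an uptake transporter, read 8.32 to 9.16 in liver-null livers, against 9.40 to 9.88 in wild-type livers, and fell by 0.79 (SE 0.12, adjusted p = 0.0055). Of the genes in the supply, endoplasmic reticulum, export, sulfation and regulator lists, it was the 1 called in saline, at -0.93 (adjusted p = 0.043), a call lost without any 1 of those 6 livers. Gbe1, Pgd, Slc35d1, Entpd5, Ces1g, Abcc3 and Slco1a1 each kept the call over both treatments in 19 of 19 alternative fits.

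**Figure D4:**
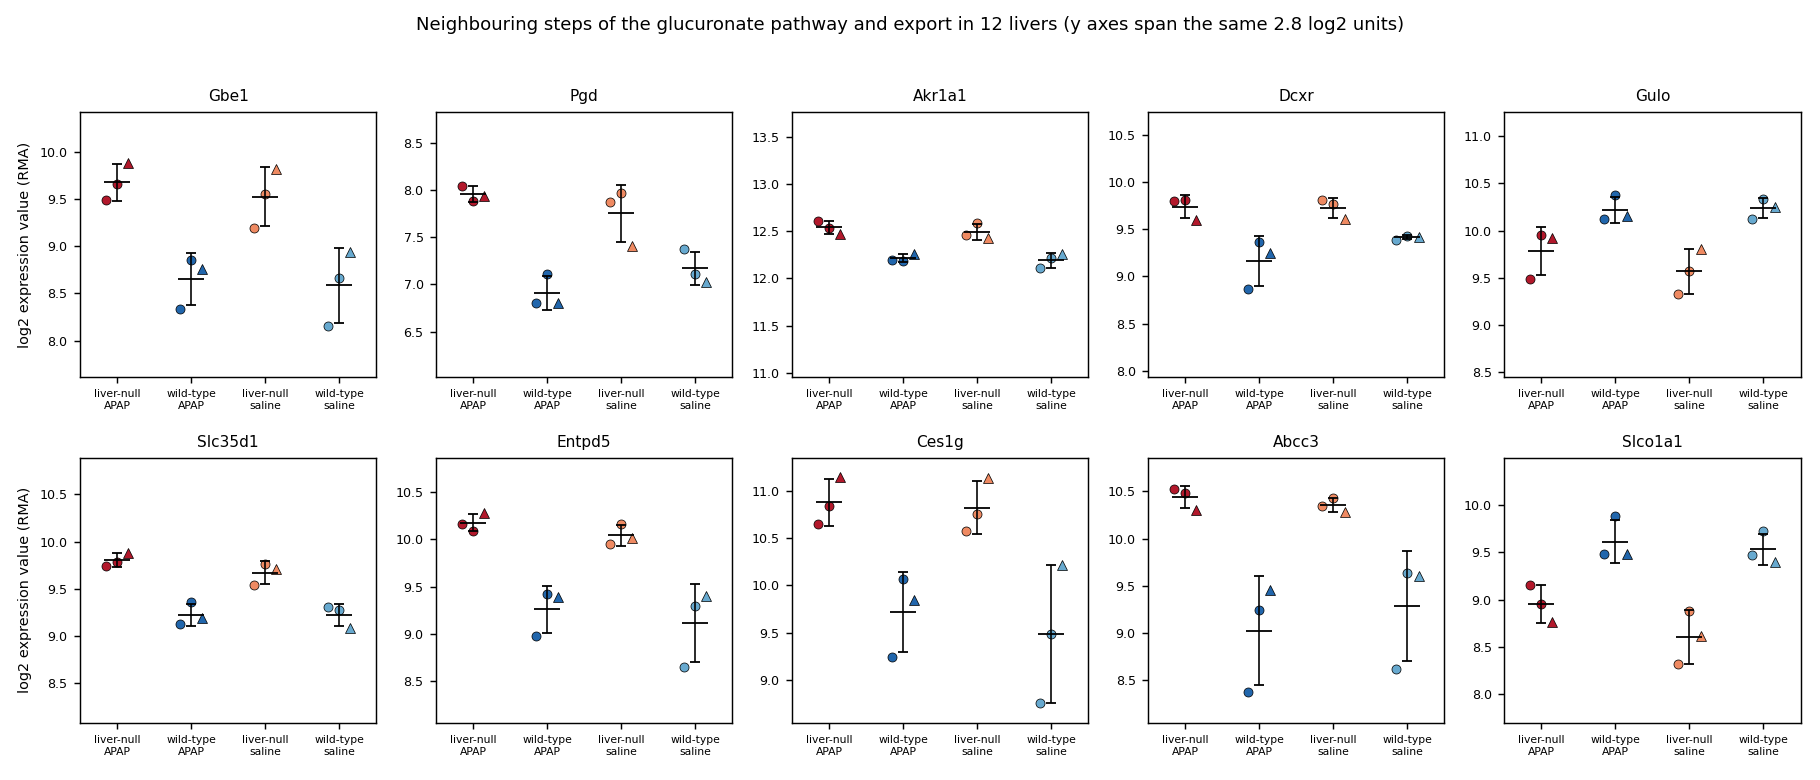
Log2 expression (RMA) of the 10 genes called over both treatments in the lists of sugar supply, endoplasmic reticulum and export, by genotype and treatment. Points are livers (triangles: the smaller set of arrays), bars the mean ± SD of 3. In every panel the 6 liver-null livers lie clear of the 6 wild-type livers, lower for Gulo and Slco1a1 and higher for the other genes. The genes were picked by their calls in this same comparison, which favours separated groups. Of all tested probe sets, 3.88% did not overlap. For Pgd the lowest liver-null liver, 7.41, is just above the highest wild-type liver, 7.37.

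Sulfation, the other main conjugation of APAP, showed 1 of 10 tested genes higher and 1 lower over both treatments (1.84% and 1.82% of all tested). Bpnt1, a phosphatase that clears the by-product of sulfation, rose by 0.35 (SE 0.08, adjusted p = 0.036) on 1 of 2 probe sets, and Slc26a1, a sulfate transporter, fell by 0.50 (SE 0.10, adjusted p = 0.024). Bpnt1 kept its call when wild-type saline 10 was left out and lost it without any 1 of the other 11 livers (adjusted p up to 0.099). Slc26a1 lost it without liver-null APAP 2, liver-null saline 4 or 5, or wild-type saline 8 or 9 (up to 0.070). Among 13 regulators of UGT genes, 0 were higher and 1 was lower (1.84% and 1.82% of all tested): Nfe2l2, which encodes NRF2, read 6.54 to 6.94 in liver-null livers, against 7.22 to 7.88 in wild-type livers, and fell by 0.76 (SE 0.11, adjusted p = 0.0043). Other known targets of NRF2 were higher in 18 of 21 tested genes and lower in 0 (against the same shares), with a median difference of 1.35 log2 units. Their mean deviation was 0.53 to 1.03 in liver-null livers, against -1.42 to -0.30 in wild-type livers. This list shares Abcc3 with the export list and holds Txnrd1, Tkt and Srxn1.

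The 8 probe sets of other genes most like Ugdh over the 12 arrays had Pearson's r of 0.964 to 0.982, a description that mostly reflects the shared genotype difference. In order they read Txnrd1, Tkt, Akr1a1 on 2 probe sets, Chpt1, Entpd5, Srxn1 and Slc48a1. Tkt is transketolase of the pentose phosphate pathway, Srxn1 is sulfiredoxin, which repairs peroxiredoxins, Chpt1 is cholinephosphotransferase and Slc48a1 is a heme transporter. After subtracting group means, r was 0.39 to 0.77. Tkt differed by 0.78 over both treatments, Chpt1 by 1.61, Srxn1 by 1.04 (1425351_at) and Slc48a1 by 2.47.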

How the data were processed

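Liver RNA was labelled with biotin in a single cycle, per the labels' protocols, and 1 array was read per sample. The authors deposited 1 log2 value for each probe set and array, computed with RMA, which corrects background, normalizes and summarises probes, per the submitters' processing notes. No source used here gives its version or settings. Array signal has no read depth, so the number of arrays limits the precision.

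Gene names came from GEO's annotation of the platform: 20380 have 1 symbol, 691 several, 64 are controls and 1555 others have none listed. A probe set was tested where 3 or more arrays read it above their own 40th percentile (14320, all 16 members included). limma 3.58.1 in R 4.3.3 fitted a mean per group over 12 arrays (8 residual degrees of freedom), with eBayes and Benjamini-Hochberg adjustment, two-sided. A call is an adjusted p under 0.05, and every adjusted p comes from these fits. The difference over both treatments is the mean of the genotype differences.

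The members and gene lists were chosen with earlier results of these data known. Every member probe set is named. Per list, up to 4 called genes in each direction were named, or the 2 with the largest difference where none passed, each on its highest-mean probe set with 1 symbol. The likeness list took the 8 tested probe sets of 1 symbol with the highest r with Ugdh. The 12 neighbouring genes searched for motifs were those called over both treatments in the supply, endoplasmic reticulum, export and sulfation lists. They were chosen after seeing the data, and 10 have a window. Nfe2l2, called in the regulator list, and the called NRF2 targets other than Abcc3 were not searched. The script was tested on simulated data. The array sets were cut at the largest gap in the upper quartile.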

Additional observations from a re-analysis of the deposited data

How the results depend on the processing

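No member changed direction while called, and Ugdh was called in every fit after APAP and over both treatments. No paired analysis was possible because no replicate number is shared between groups. Leaving out single livers gave 1 member called after APAP and over both treatments and 0 to 1 in saline (0 without liver-null saline replicate 5), with 32 to 92 probe sets called in the table after APAP (32 without liver-null APAP replicate 2), 13 to 124 in saline (13 without liver-null saline replicate 5) and 311 to 611 over both. With the array set as a covariate the table had 282 calls after APAP, 385 in saline and 1262 over both, and 2 members over both. With array weights it had 286, 2030 and 1989, with 2 members in saline and 3 over both. The main fit had 109, 89 and 523, so the added member calls came with many more calls in the whole table. With only the groups compared it had 66 after APAP and 31 in saline, with 0 members in saline. Quantile normalization gave 164 in saline and 816 over both. A trended, robust variance gave 168 in saline, and 2 members over both. One probe set per gene, over 8467 genes, gave 65 after APAP and 54 in saline. Without wild-type APAP replicate 12 and liver-null saline replicate 4, chosen after seeing the data, the table had 57, 39 and 328 calls, with 2 members over both. The counts for APAP and for the interaction were 0 in each of these fits. The cause of these shifts was not tested. With 3 arrays a group the precision is limited, and the Ugp2 differences came with wide intervals.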

Other observations

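Of 15 other UDP-glucuronosyltransferase genes listed, 4 had a probe set of 1 symbol and 3 were tested, with 0 called in any comparison. Ugt2b38, in the same chromosome 5 cluster as Ugt2b5, gave the widest spread of these 3. It read 6.92, 4.28 and 5.71 in liver-null APAP livers, against 8.01, 7.03 and 6.63 in wild-type APAP livers, and 4.21, 7.10 and 5.31 in liver-null saline livers, against 7.73, 7.50 and 6.10 in wild-type saline livers. Its difference over both treatments was -1.58 (SE 0.55, interval -2.79 to -0.37, adjusted p = 0.16), with the genotypes overlapping. Ugt2a3 read 9.74 to 10.43 in liver-null livers, against 10.23 to 10.67 in wild-type livers, a difference of -0.22 (adjusted p = 0.41), and Ugt2b37 differed by -0.10 (adjusted p = 0.87). Ugt8a and the probe set shared by Ugt2a1 and Ugt2a2, at 1.45 to 2.37 in liver-null livers and 1.33 to 2.36 in wild-type livers, did not pass the filter on low values.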
